A study of Rattus norvegicus with 4 samples.

Results

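The cytosolic ribosomal protein genes encode the proteins of the large and small ribosomal subunits. They were picked by symbol: a probe set had to carry a single annotated symbol that begins with Rpl or Rps and a digit or with Rplp, or to be Rpsa, and the Rps6k kinases were left out. This gave 46 of the 12922 genes measured, each represented by its probe set with the highest mean over the 4 arrays. Among them were 27 large subunit proteins, 13 small subunit proteins, the stalk protein Rplp0, 4 paralogues named with a final l or l1 and the transcribed pseudogene Rpl37-ps2.

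The study asked which genes respond early when rat aortic smooth muscle cells leave their contractile state. Cultured cells were given 10% fetal bovine serum for 24 h and then held for 72 h without serum or insulin. PDGF-BB, a form of platelet-derived growth factor that makes smooth muscle cells divide, was then added at 30 ng/mL to 2 samples in the same starvation medium, and 2 further samples got the vehicle (0.2% BSA made up in acetic acid at 10 mM). After 3 h of treatment total RNA was taken for Affymetrix arrays, and the labels name no strain, sex, age or genetic change. The labels do not state whether replicate arrays stand for separate cultures, so the p-values cover only the spread from array to array, which may be technical.

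A ribosome carries most ribosomal proteins as a single copy, and cells make the set in matched amounts. Mammalian ribosomal protein mRNAs are abundant and long-lived, and they begin with a C followed by a run of pyrimidines, the terminal oligopyrimidine (TOP) tract. In starved cells these mRNAs are held out of translation through the repressor Larp1, and growth factors release them through the kinase complex mTORC1, so that their translation can change without a change in their amount. Arrays of total RNA measure the amount and not the translation.

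Median probe set intensity per array was 144 and 132 with PDGF-BB and 145 and 148 with vehicle. All 8 smooth muscle markers were measured, and 3 of them, Lmod1, Smtn and Myh11, fell with PDGF-BB, by 1.70, 0.79 and 0.70 on the log2 scale, while 0 rose (37.5%, against 27.7% called among all 12922 genes by limma, 12.4% higher and 15.3% lower). Cnn1, at 11585 and 11489 with PDGF-BB and 9597 and 9622 with vehicle, gave 0.26 without passing the test, and Tagln and Des gave 0.02 and 0.17. Acta2 and Myl9 gave -0.10 and -0.13, also without passing, and in both genes the PDGF-BB arrays lay below the vehicle arrays. Of the 8 markers 4 were over 8000, where 5.6% of all genes were called. Of the markers that fell, Smtn and Myh11 lost their calls without either vehicle array or without PDGF-BB replicate 2. With an offset of 1 Myh11 lost its call too (limma adjusted p = 0.0567). The endothelial markers Pecam1, Vwf and Kdr averaged 7.55 to 25.5 over the 4 arrays. This was under the highest of 27 Bacillus control probe sets at 80.3, which served as a rough guide to background. Of 6 macrophage and leukocyte markers 0 were called, and only 2 had means above 80.3. These were Cd14, at 1209 with PDGF-BB and 1434 with vehicle, and Lyz2, at 215 with PDGF-BB and 204 with vehicle. The others lay below that level, among them the general leukocyte marker Ptprc with a mean of 16.3. Of 5 adventitial fibroblast markers 0 were called, and their means were 23.9 to 94.3.

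The annotated starts of the genes are shown because the TOP tract is the sequence feature by which these mRNAs are known. RefSeq promoters of the rat build GRCr8 were found for 38 of the 46 genes. A C with at least 4 more pyrimidines right at the annotated start was present in 10 of these 38 (26.3%), against 2.63% of 27457 rat promoters. When the run could begin within 10 bases of the annotated start, 24 of 38 genes (63.2%) had it, against 27.7% of all promoters. Each window below runs 5′ to 3′ over the 15 bases before the start and the first 15 transcribed bases, and capitals mark the pyrimidine run from the start.
Rplp0, chr12:46718376-46718405 (-): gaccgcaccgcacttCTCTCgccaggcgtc
Rpl19, chr10:83519049-83519078 (+): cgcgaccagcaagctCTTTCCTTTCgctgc
Rpl35a, chr11:81235007-81235036 (-): gcgggtcttgccttcCTCTTTCCgccatct
Rpl22, chr5:168117946-168117975 (+): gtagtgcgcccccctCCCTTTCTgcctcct
Rpl34, chr2:221962269-221962298 (-): ccccttccttttcctCTTCCggggacggtg
Rpl14, chr8:129163605-129163634 (+): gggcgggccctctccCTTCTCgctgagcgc
Rps15, chr7:10068101-10068130 (-): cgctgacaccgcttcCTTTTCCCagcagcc
Rps3a, chr2:173827028-173827057 (-): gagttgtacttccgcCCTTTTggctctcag
Rpl39, chrX:121195882-121195911 (-): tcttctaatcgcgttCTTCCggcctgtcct
Rpl7l1, chr9:21695703-21695732 (+): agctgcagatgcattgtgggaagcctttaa
The first 9 windows have such a run. That of Rpl7l1, which has none at this start, is shown because it is the gene called, just under the threshold. Rpl7l1 is still among the 24 genes with a run that begins within 10 bases of the start. An annotated start may lie off the start used in these cells, so a window without capitals says nothing about the mRNA.

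Over the whole set, few genes passed the test for a difference between PDGF-BB and vehicle. Of the 46 genes, 1 rose (Rpl7l1), 0 fell and 45 did not pass the test (limma, Benjamini-Hochberg adjusted p under 0.05), against 27.7% called among all 12922 genes (12.4% higher and 15.3% lower). At an unadjusted p under 0.05 there were 3 of 46 genes, against 41.5% of all genes. The median difference, PDGF-BB minus vehicle on the log2(intensity + 16) scale, was 0.01 over the 46 genes and -0.03 over all genes. Its sign depended on how the arrays were scaled: it was 0.08 with array medians subtracted, -0.02 after quantile and -0.13 after cyclic loess normalization. In 6 genes both PDGF-BB arrays lay above both vehicle arrays and in 3 genes below them, 19.6% of the set. Such a gap between the groups was seen in 67.5% of all genes. But 38 of the 46 genes were over 8000, so these shares are not of genes of like intensity. Among all genes over 8000, 5.6% were called, 8.8% had an unadjusted limma p under 0.05 and 57.6% had such a gap.

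**Figure D1:**
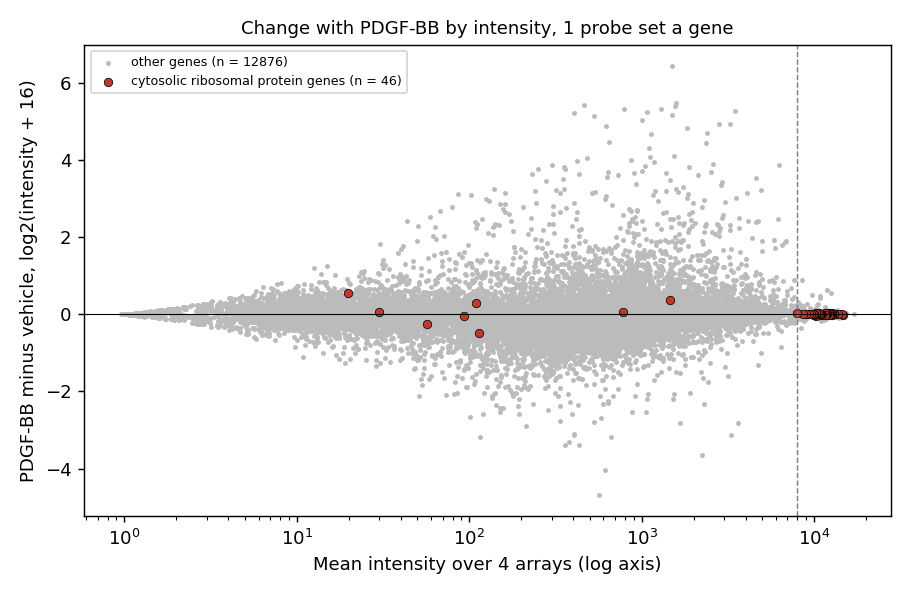
Difference between PDGF-BB and vehicle in log2(intensity + 16) against mean intensity over the 4 arrays (log axis), 1 point a gene, with the 46 ribosomal protein genes in red, the other 12876 genes in grey and a dashed line at 8000. The 38 red points right of the line lie between -0.04 and 0.04.

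In these cells 38 of the 46 genes had mean intensities over 8000, near the top of the arrays, where the highest values were 16721 to 17218. The brightest was Rpl3 at 14644 and the dimmest of the 38 was Rpl14 at 8003, while the next gene below was Rpl7l1 at 1468, so the limit of 8000 fell in a wide gap. Of these 38 genes 0 were called by limma and 0 had an unadjusted p under 0.05, against 5.6% called and 8.8% with such a p among all 125 genes over 8000. Their differences ranged from -0.04 for Rpl37a to 0.04 for Rpl14, or 0.972- to 1.03-fold, with a median of 0.00434 and an SD over genes of 0.0204. That median moved with the scaling, to 0.0810 with array medians subtracted, -0.0309 after quantile and -0.131 after cyclic loess normalization, so neither its sign nor its size is fixed by these data. The 95% intervals of the 38 differences lay between -0.30 and 0.28, that is 0.813- to 1.21-fold, so smaller changes cannot be told from none with 2 arrays a group. With a variance prior that follows intensity the intervals narrowed to 0.904- to 1.09-fold, and 0 were called. Intensities of different probe sets do not rank the mRNAs, since each probe set has its own response.

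**Figure D2:**
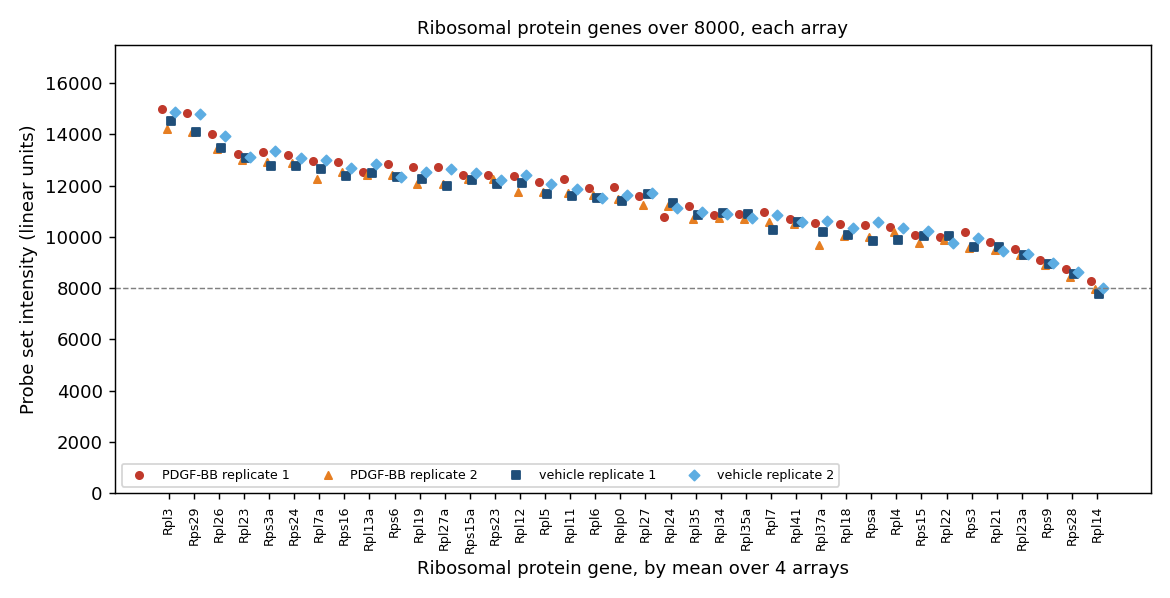
Intensity of the 38 ribosomal protein genes over 8000 on each array, ordered by mean, with the limit dashed: circles and triangles are PDGF-BB replicates 1 and 2, squares and diamonds vehicle replicates 1 and 2. In 33 of the 38 genes the values of the groups overlap.

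Of the large subunit, 25 of 27 genes were over 8000 and 0 of the 27 were called, where 5.6% of all genes over 8000 were called. Rpl3, which lies near the peptidyl transferase centre, read 14984 and 14209 with PDGF-BB and 14521 and 14863 with vehicle. Rpl26 read 14012 and 13425 with PDGF-BB and 13459 and 13934 with vehicle. In both genes the vehicle arrays lay between the PDGF-BB arrays, and the differences were -0.01 (SE 0.09) and 0.00222 (SE 0.09). Rpl23 read 13251 and 12987 with PDGF-BB and 13092 and 13127 with vehicle, so both vehicle arrays fell between the PDGF-BB arrays.

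Rpl5 and Rpl11, which join the 5S rRNA before assembly and bind the p53 ligase Mdm2 when assembly fails, kept overlapping values. Rpl5 read 12128 and 11741 with PDGF-BB and 11657 and 12067 with vehicle, and Rpl11 read 12250.4 and 11727.5 with PDGF-BB and 11582 and 11879 with vehicle. Their differences were 0.01 and 0.03. Rpl13a, known in human monocytes as a part of a translational silencing complex and often used as a reference gene, read 12517 and 12429 with PDGF-BB and 12499.6 and 12825 with vehicle, a difference of -0.02. Rpl22, an RNA-binding protein that mice can lose with a defect mainly in T cells, read 10009 and 9883 with PDGF-BB and 10049 and 9767 with vehicle. Rpl7 read 10971 and 10592 with PDGF-BB and 10268 and 10857 with vehicle, a difference of 0.03. The groups overlapped in all 5 of these genes.

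The gene nearest to the limit from above was Rpl14, with 8286 and 7954 under PDGF-BB and 7766 and 8006 under vehicle, a difference of 0.04 (SE 0.09) that was the highest of the 38. Rpl37a, at the other end, read 10544 and 9678 with PDGF-BB and 10180.1 and 10620.1 with vehicle, a difference of -0.04 (SE 0.10). Both ends of the range thus came from genes whose arrays overlapped. Groups without overlap were found for Rpl6, with 11925 and 11641 under PDGF-BB above 11505 and 11528 under vehicle. They were also found for Rpl27 and Rpl34, in which both PDGF-BB arrays were the lower ones: Rpl27 read 11593 and 11241.5 with PDGF-BB and 11667 and 11702 with vehicle. The adjusted p of these 3 genes was 0.820 to 0.917 (limma).

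Of the small subunit, 12 of 13 genes were over 8000 and 0 of the 13 were called, again beside 5.6% of all genes over 8000. Rps6, the substrate of the S6 kinases downstream of mTORC1, read 12857 and 12401 with PDGF-BB and 12352 and 12340.4 with vehicle. Both PDGF-BB arrays were above both vehicle arrays, by a difference of 0.03 (SE 0.09, limma adjusted p = 0.827). Rps23, which sits at the decoding centre, also had both PDGF-BB arrays on top, at 12403 and 12268.5, against 12045 and 12223 with vehicle. Across the 38 genes over 8000 such gaps made up 13.2%, with 3 genes higher (Rps6, Rps23 and Rpl6) and 2 lower (Rpl27 and Rpl34), against 57.6% of all genes over 8000.

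Rps29 read 14850.4 and 14090.4 with PDGF-BB and 14077 and 14796 with vehicle, and Rps3a read 13324 and 12939 with PDGF-BB and 12750.3 and 13332 with vehicle. Rps24 read 13190.5 and 12873 with PDGF-BB and 12765 and 13076 with vehicle. Their differences were 0.00331, 0.01 and 0.01, and the groups overlapped in each. Rpsa, a small subunit protein also known as a laminin receptor, read 10469 and 9993 with PDGF-BB, inside the 9835 and 10587 of the vehicle arrays. Rps9 read 9087 and 8908 with PDGF-BB and 8953 and 8975 with vehicle, and Rps28 read 8741 and 8421.5 with PDGF-BB and 8540.01 and 8612 with vehicle. These 2 genes, the nearest to the limit after Rpl14, differed by 0.01 and 0.000639.

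Rplp0, the base of the stalk that recruits elongation factors and a common reference gene, was the measured stalk protein. It read 11960.1 and 11475 with PDGF-BB and 11412 and 11641 with vehicle, a difference of 0.02 (SE 0.09, limma adjusted p = 0.880). Its groups overlapped. Rack1, a scaffold protein of the small subunit whose symbol lies outside the rule, read 10008 and 9943 with PDGF-BB and 9801 and 9929 with vehicle, a difference of 0.02 (SE 0.08, limma adjusted p = 0.917).

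The genes over 8000 also differed between arrays of the same group. PDGF-BB replicate 1 was brighter than PDGF-BB replicate 2 in 37 of the 38 genes, by a median of 0.05 on the log2 scale, and vehicle replicate 2 was brighter than vehicle replicate 1 in 32 of 38, by a median of 0.03. These are values without further scaling, on which the median difference between the groups was 0.00434, and other scalings of the arrays gave medians of -0.131 to 0.0810. Before such scaling the 38 genes moved together from array to array, and the array medians given above have the same order within each group.

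**Figure D3:**
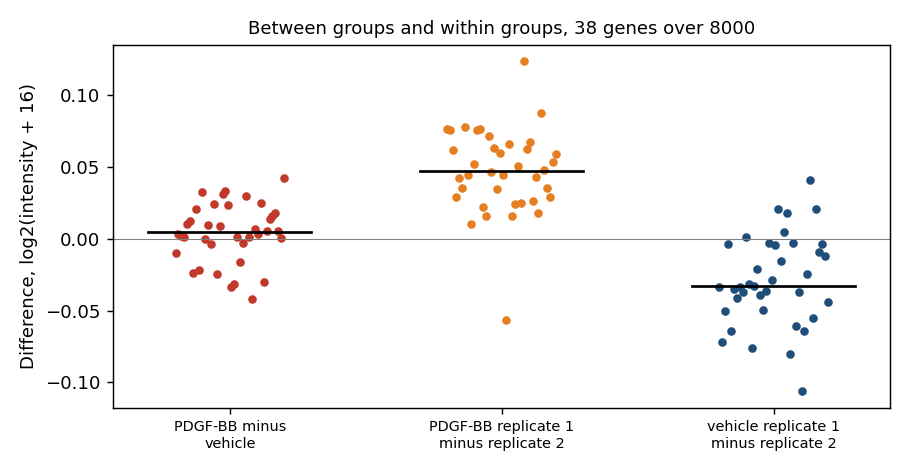
Log2 differences for the 38 ribosomal protein genes over 8000, 1 point a gene with medians as bars: PDGF-BB minus vehicle, then replicate 1 minus replicate 2 of PDGF-BB and of vehicle. Values are without further scaling, and the medians are 0.00434, 0.05 and, as vehicle replicate 2 was the brighter one, 0.03 below 0.

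Taken as 1 value per array, the 46 genes held 3.95% and 4.01% of the summed intensity of all genes with PDGF-BB and 4.17% and 4.20% with vehicle. The means were 3.98 ± 0.0437% with PDGF-BB and 4.19 ± 0.0258% with vehicle (SD, n = 2 each), and the groups did not overlap. The difference of -0.206 percentage points had a two-sided exact permutation p of 0.333, the smallest that 2 against 2 arrays allow. With array medians subtracted the difference was -0.210, after quantile normalization -0.0482 and after cyclic loess normalization -0.524. The share also falls when other genes brighten, and the summed intensity of the 46 genes was 443191 and 428826 with PDGF-BB and 429961 and 439170 with vehicle, which overlap.

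Other genes in the same range give the setting for these differences. Among the 87 other genes over 8000, 6 rose and 1 fell (8.05% called), with differences from -0.36 to 0.89 and an SD over genes of 0.188. The highest of these, Msmo1, read 11198 and 10892 with PDGF-BB and 5890.14 and 6001 with vehicle, so it passes the limit through the PDGF-BB arrays and its vehicle values lie below it. The lowest, Smoc1, read 7401 and 7355 with PDGF-BB and 9591 and 9309 with vehicle, so it passes through the vehicle arrays. Both ends of that range thus come from genes that pass the limit through the group where they are high. The gap junction gene Gja1 was over 8000 on every array, with 14578 and 14376 under PDGF-BB and 9134 and 9675 under vehicle, a difference of 0.62. These values lie within the range of the means of the 38 genes. Each probe set has its own response, so the values of Gja1 do not carry over to other probe sets. How far a compressed response holds down the differences of the 38 genes was not tested.

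A further 30 probe sets carried several symbols, all of ribosomal proteins or their copies, and were left out of the 46 genes because their signal cannot be assigned to a single gene. Of these, 23 were over 8000, with differences from -0.07 to 0.07 and 0 called by limma (0 with an unadjusted p under 0.05). They cover proteins that had no probe set of their own, such as Rps18, Rpl10 and Rpl36a. Another 6 lay between 4000 and 8000 and gave -0.05 to 0.07 with 0 called, while 22.6% of the 372 genes in that range were called, a range chosen after seeing the data. The set shared by Rps10, Rps10l1 and Rpl30 read 7637 and 7509 with PDGF-BB and 7297 and 7118 with vehicle, above vehicle on both arrays by 0.07 without passing the test. That shared by Rps25 and its copies read 5995 and 6039 with PDGF-BB and 5720.27 and 6134 with vehicle.

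The other 8 genes of the set lay at or under 8000, and among them 1 rose and 0 fell (12.5%), against 27.9% called among all genes in that range (12.5% higher and 15.4% lower). Rpl7l1, a paralogue of Rpl7 that in human cells is found in precursors of the large subunit, read 1719 and 1606 with PDGF-BB and 1253 and 1293 with vehicle. It averaged 1662 ± 79.7 with PDGF-BB and 1273 ± 28.0 with vehicle (SD, n = 2 each). Both PDGF-BB arrays were higher, and the difference was 0.38 (SE 0.09, limma adjusted p = 0.0486), just under the threshold. A second probe set of the gene read 1347 and 1278 with PDGF-BB and 1045 and 1027 with vehicle, a difference of 0.34 (SE 0.09) with a limma adjusted p of 0.0590. Leaving out any 1 array ended the call, with a limma adjusted p of 0.271 or 0.223 when the first or second vehicle array was left out and of 0.0955 or 0.0770 when the first or second PDGF-BB array was. With the replicate number as a block the adjusted p was 0.109, and the difference stayed between 0.28 and 0.46 under every alternative run.

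The 250 bases before the annotated start of Rpl7l1 are shown because it was the gene called. They run 5′ to 3′, with the motif CCGGAAG, the core that ETS factors such as GABP are known to bind, in capitals.
Rpl7l1, chr9:21695468-21695717 (+): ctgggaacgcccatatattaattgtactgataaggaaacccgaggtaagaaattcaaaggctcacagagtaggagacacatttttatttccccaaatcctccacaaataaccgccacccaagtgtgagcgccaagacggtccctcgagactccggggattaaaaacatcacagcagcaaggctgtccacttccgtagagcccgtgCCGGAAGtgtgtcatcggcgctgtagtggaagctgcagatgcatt
Motifs were searched on both strands of the 250 bases before each annotated start, so sites at or after the start were not counted. CCGGAAG occurred in 7 of the 38 promoters (18.4%), against 7.74% of all 27457. The other carriers were Rps6, Rpl27a, Rpl11, Rpl35, Rpl41 and Rpl39l1. Of the other motifs, GGGCGG occurred in 23 of 38 (60.5%, against 32.4%), TATAAA in 6 (15.8%, against 13.1%), CACGTG, the E-box of MYC, in 2 (5.26%, against 5.79%), TGANTCA, the AP-1 motif, in 1 (2.63%, against 6.36%) and AAGATGGC, the YY1 motif, in 0 (against 1.69%). In no promoter of the set did sites of different motifs overlap.

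**Figure D4:**
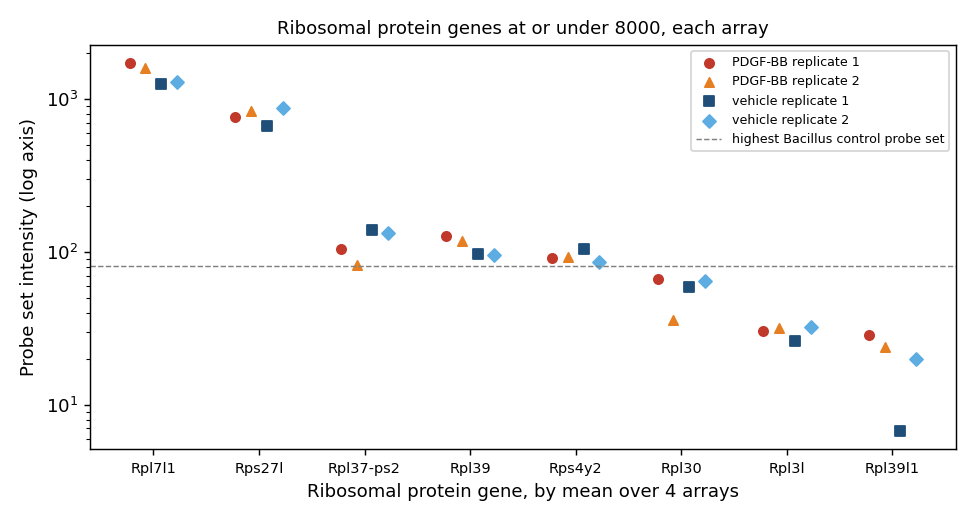
Intensity (log axis) of the 8 ribosomal protein genes at or under 8000 on each array, ordered by mean, with the highest Bacillus control (80.3) dashed: circles and triangles are PDGF-BB, squares and diamonds vehicle. Both PDGF-BB arrays are above both vehicle arrays for Rpl7l1, Rpl39 and Rpl39l1 and below them for Rpl37-ps2.

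Rps27l, a paralogue of Rps27 and a p53 target in human cells, read 758 and 838 with PDGF-BB and 668 and 871 with vehicle, so the groups overlapped. Rpl39, a short protein that lines the exit tunnel, read 126 and 118 with PDGF-BB and 96.9 and 95.4 with vehicle, both PDGF-BB arrays being higher, a difference of 0.30 (SE 0.09, limma adjusted p = 0.0798). Rpl37-ps2 read 105 and 81.8 with PDGF-BB and 138 and 132 with vehicle, both PDGF-BB arrays being lower, a difference of -0.48 (SE 0.13, limma adjusted p = 0.0690). These 2 genes passed the test under some alternatives: Rpl39 under the 3 other scalings, with adjusted p values of 0.0206 to 0.0282, and Rpl37-ps2 with an offset of 64, at 0.0387, with the mean of all probe sets of a gene, at 0.0487, and without PDGF-BB replicate 1, at 0.0448. Both passed when probe sets under the Bacillus level were left out, at 0.0254 and 0.0122. Their means over the 4 arrays, 109 for Rpl39 and 114 for Rpl37-ps2, were themselves not far above that level of 80.3.

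The remaining genes were near the Bacillus level too, or under it. Rps4y2 read 91.7 and 92.2 with PDGF-BB and 105 and 85.4 with vehicle. Rpl30, Rpl3l and Rpl39l1 had means over the 4 arrays under 80.3. For Rpl30 the single-symbol set read 66.4 and 36.1 with PDGF-BB and 59.1 and 64.7 with vehicle, while a set shared with its copies averaged 10545 and gave 0.01. Rpl3l, the paralogue of Rpl3 known from striated muscle, read 30.5 and 31.6 with PDGF-BB and 25.9 and 32.4 with vehicle. Rpl39l1 read 28.5 and 24.0 with PDGF-BB and 6.73 and 19.9 with vehicle, a difference of 0.56 (SE 0.24) that did not pass (limma adjusted p = 0.178). Its signals were under the Bacillus level on all 4 arrays, and the difference was 0.23 without vehicle replicate 1 and 0.89 without vehicle replicate 2, and 1.09 with an offset of 1 and 0.23 with an offset of 64.

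Other mRNAs known for a TOP tract encode translation factors and related proteins. Of 16 listed 11 were measured, 0 rose and 1 fell (9.09%), with a median of -0.01. Among all genes 27.7% were called, but 4 of the 11 were over 8000, where 5.6% of genes were called. The elongation factor Eef1a1 read 14421 and 13729 with PDGF-BB and 13949.5 and 14252 with vehicle, and Eef2 read 8799.98 and 8226 with PDGF-BB and 9005 and 9251 with vehicle, neither of them called. Eif4b, a helper of the initiation helicase, was the exception, at 1397 and 1211 with PDGF-BB and 2045 and 2190.34 with vehicle, a difference of -0.70 (SE 0.11, limma adjusted p = 0.0184). Its call was lost without the first (0.104) or second vehicle array (0.126) or the second PDGF-BB array (0.0611).

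Chaperones and import receptors that bring new ribosomal proteins to the nucleolus formed the next list. All 13 were measured, 4 rose and 1 fell (38.5%, against 27.7% of all genes), with a median of 0.21 (-0.03 over all genes). All 13 had means above the Bacillus level, as did only 8917 of the 12922 genes, so the shares are not of genes of like intensity. The import receptor Ipo5 read 5440.44 and 5207 with PDGF-BB and 2129 and 2182 with vehicle, a difference of 1.30 (SE 0.09, limma adjusted p = 0.00256), and kept its call without any 1 array. The related Ipo7 rose by 0.65, and Heatr3, whose yeast counterpart escorts Rpl5 and Rpl11, rose by 0.69. Nop53, a nucleolar protein of large subunit assembly, fell, with 1376 and 1277 with PDGF-BB and 2108 and 2326 with vehicle, a difference of -0.73. Ipo7, Heatr3 and Nop53 lost their calls without vehicle replicate 1 or vehicle replicate 2, with limma adjusted p values of 0.0781 to 0.115, and Nop53 also without PDGF-BB replicate 2 (0.0615). The 4th gene that rose was Grwd1, at 0.68, which falls outside the rule for named genes and is named after its values were seen.

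Of 22 listed genes of mTORC1 and of the repression of TOP mRNAs, 20 were measured, 2 rose and 5 fell (35%, against 27.7% of all genes), with a median of -0.01. Here too the intensities are unlike, as 19 of the 20 had means above the Bacillus level. The cap-binding protein Eif4e read 4981 and 5044 with PDGF-BB and 2125 and 2247 with vehicle, a difference of 1.19 (SE 0.09, limma adjusted p = 0.00311) that kept its call without any 1 array. Larp1 read 1816 and 1672 with PDGF-BB and 1093 and 1123 with vehicle, a difference of 0.65 (SE 0.09, limma adjusted p = 0.0139). Deptor, a binding partner that inhibits mTOR, read 1909 and 1742 with PDGF-BB and 2849 and 2905 with vehicle, a difference of -0.65, and Pdcd4, an inhibitor of the initiation helicase, fell by 0.61. Larp1, Deptor and Pdcd4 lost their calls without vehicle replicate 1 or vehicle replicate 2 (limma adjusted p from 0.104 to 0.146), and the last 2 also without PDGF-BB replicate 2 (0.0519 and 0.0606). With an offset of 1 Pdcd4 lost its call too (limma adjusted p = 0.0523). Tsc1, Akt1s1 and Mlst8 also fell, by 0.60, 0.43 and 0.42, and are named after their values were seen. Mtor itself read 543 and 438 with PDGF-BB and 543 and 526 with vehicle and was not called.

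Among 10 transcription factors linked to ribosomal protein promoters 1 rose and 2 fell (30%, near the 27.7% of all genes), with a median of -0.18. Myc read 2803 and 2956 with PDGF-BB and 831 and 850 with vehicle, a difference of 1.76 (SE 0.09, limma adjusted p = 0.00133) that kept its call without any 1 array. Mxd4, which opposes MYC at E-boxes, read 414 and 355 with PDGF-BB and 738 and 829.92 with vehicle, a difference of -0.999 (SE 0.12, limma adjusted p = 0.00941). Gabpb1, a subunit of GABP, fell by 0.39 (limma adjusted p = 0.0427). Mxd4 lost its call without either vehicle array or the second PDGF-BB array (0.0507 to 0.0727), and Gabpb1 without any 1 array (0.0666 to 0.244), with an offset of 1 (0.0689) or with the replicate block (0.101).

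The Rps6ka genes encode the p90 ribosomal S6 kinases, of which some phosphorylate Rps6, and the related kinases MSK1 (Rps6ka5) and MSK2 (Rps6ka4), all activated by MAP kinases. Of 5 measured, 1 rose and 1 fell (40%, against 27.7% of all genes). Rps6ka3 read 902 and 782 with PDGF-BB and 341 and 411 with vehicle, a difference of 1.13 (SE 0.14, limma adjusted p = 0.00922), with its call lost without vehicle replicate 1 (0.0640) or PDGF-BB replicate 1 (0.0514). Rps6ka5 read 103 and 90.8 with PDGF-BB and 252 and 255 with vehicle, a difference of -1.26 (SE 0.10, limma adjusted p = 0.00360), and kept its call without any 1 array. Of 73 genes for mitochondrial ribosomal proteins, which build the separate ribosome of that organelle, 1 rose and 10 fell (15.1%, against 27.9% of all genes at or under 8000), with a median of -0.17 and mean intensities of 173 to 3847, all under 8000. These genes lie in another intensity range than the 38 bright cytosolic ones, so the counts are given side by side without a comparison.

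**Figure D5:**
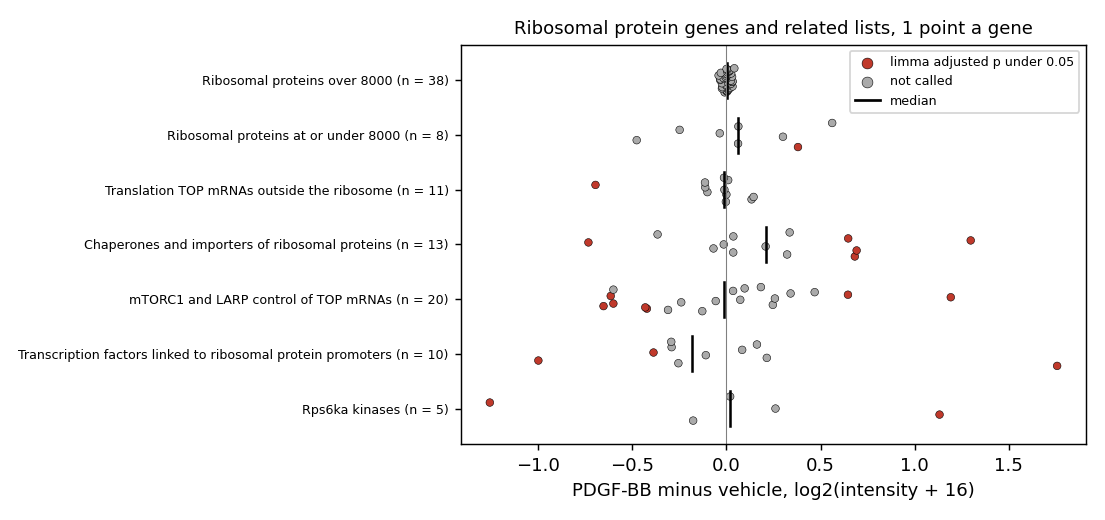
Difference between PDGF-BB and vehicle in log2(intensity + 16), 1 point a gene, for the ribosomal protein genes over 8000 and at or under 8000 and for related gene lists, with called genes in red and medians as bars. The 38 genes over 8000 lie between -0.04 and 0.04, while Myc stands at 1.76 and Rps6ka5 at -1.26.

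In RNA from whole cultures, fewer cells of a type and less RNA per cell cannot be told apart, and since the scaling of the arrays is unknown, a change in RNA per cell shared by all genes may not show in these values. A 5S rRNA control probe set read 127 and 133 with PDGF-BB and 140 and 127 with vehicle, so the groups overlapped. By annotated start, the 10 genes with a run at the annotated start had differences of -0.03 to 0.30 with a median of 0.00325, and the other 28 with a promoter -0.04 to 0.56 with a median of 0.00912, given as a description.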

How the data were processed

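RNA of 4 samples, 2 with PDGF-BB and 2 with vehicle, was measured on Affymetrix arrays, and groups came from the sample titles. The table deposited by the authors holds linear probe set intensities, judged from the values. For the software, background correction and scaling nothing is given in the sources used here, and detection calls were not used here. Precision is limited by the number of arrays.

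Of 23764 probe sets, 57 controls were left out and 23707 tested as log2(intensity + 16), unscaled, in limma 3.58.1 under R 4.3.3 (lmFit, then eBayes), two-sided and Benjamini-Hochberg adjusted over all of them at 0.05. The offset understates changes of dim genes. Residual degrees of freedom were 2, those of the variance prior 2.40. In the platform annotation 17279 probe sets have 1 symbol, 373 have several and 6055 have none. Of the 46 genes, 44 matched a current identifier (not Rpl37a and Rps9), and no representing probe set had an s or x suffix. The fit was tested on simulated data with noise at the moderated spread, after a simulation with the raw residual spread had recovered too few of its changes. At the moderated spread 1 of 62 simulated log2 changes of 0.5 was called, 59 of 71 of 1 and 67 of 67 of 2. In that simulation 23507 of 23707 probe sets had no change, so these counts are not rates for the data.

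The members, 10 related and marker lists and this rule for named genes were chosen with earlier results of these data known: up to 12 called members, the 6 brightest and 4 dimmest, paralogues and pseudogenes, 16 symbols chosen by name (10 measured), the 3 nearest to 8000 on each side, and up to 4 called genes of each list with the smallest p. This gave 42 genes, 25 of them members. Other genes are named where a comparison turns on them. Alternatives changed the offset, scaling, filter, prior, block, arrays and probe set per gene. Same-numbered samples deviated with a correlation of -0.0978 over 23707 probe sets, so the numbers were not taken as pairs.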

Additional observations from a re-analysis of the deposited data

Results flagged for a closer look

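Among probe sets that did not represent a gene of the set, 1 of 6 with a single symbol and 1 of 30 with several were called. These are 16.7% and 3.33%, against 27.7% of all genes. The second probe set of Rps24 read 728 and 615 with PDGF-BB and 458 and 484 with vehicle, a difference of 0.49 (SE 0.12, limma adjusted p = 0.0491), just under the threshold. The brightest set of Rps24, at 13190.5 and 12873 with PDGF-BB and 12765 and 13076 with vehicle, gave 0.01, and the difference between these probe sets was not tested.

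A dim probe set annotated to 5 copies of Rpl37 (Rpl37-ps5, Rpl37l4, Rpl37l3, Rpl37l2 and Rpl37l1) read 299 and 267 with PDGF-BB and 161 and 152 with vehicle, a difference of 0.79 (SE 0.10, limma adjusted p = 0.0104). A bright set shared by 3 of these copies read 11240 and 10725 with PDGF-BB and 11329 and 11086 with vehicle and gave -0.03. What the dim set measures was not tested.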

How the results depend on the processing

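The 38 genes over 8000 had 0 calls under every alternative run, also without any 1 array and when the vehicle mean set the limit. The count over all 46 genes, and the same count at or under 8000, was 1. It was 0 with an offset of 1, with a robust prior or with the replicate block, and 2 with an offset of 64, array medians subtracted, quantile normalization, cyclic loess normalization or the mean of all probe sets of a gene. It was 3 with only probe sets above the Bacillus level, and 0 to 1 without 1 array. The single call without PDGF-BB replicate 1 was Rpl37-ps2 and not Rpl7l1. The median difference of the 46 genes, 0.01, was 0.0821 with array medians subtracted, -0.0201 after quantile and -0.128 after cyclic loess normalization, and -0.0140 to 0.0326 without 1 array. The cause of these shifts was not tested. Calls among all genes, 3574, numbered 791 and 847 without the first or second vehicle array and 1894 without the second PDGF-BB array, where fewer arrays remain. Of the results for single named genes under alternatives, 44 lost a call, 8 gained one and 0 turned a called direction. A further 45 were counted as moved by more than the spread between replicates, and 530 as the same. The 530 include called genes that kept their call and still moved by more than that spread. Ipo5, for one, went from 1.30 to 1.15 after quantile normalization, with a residual SD of 0.036. The share of summed intensity kept its sign in every scaling. With 2 arrays a group, small changes of bright genes stay within the error, and probe sets near the Bacillus level carry little signal.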

Other observations

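Other probe sets of the 46 genes that were not called gave these values. The second set of Rpl7 read 431 and 550.1 with PDGF-BB and 326 and 504 with vehicle, a difference of 0.25 (SE 0.25). An x-type set of Rpsa, whose probes can match other transcripts, read 6453 and 6372 with PDGF-BB and 6577 and 6571 with vehicle, both PDGF-BB arrays being lower by a difference of -0.04 (SE 0.08). The second set of Rpl14 was under the Bacillus level on all 4 arrays.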
